A study of Mus musculus with 12 samples.

Results

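Replication-dependent histone genes encode the linker histone H1 and the core histones H2A, H2B, H3 and H4, which package newly copied DNA. They were examined in B16F10 cells, a mouse melanoma line, after knockdown of Osgep. Of 70 mouse genes whose symbol starts with Hist1h, Hist2h, Hist3h or Hist4h, 67 were protein-coding, and the 43 with 10 or more counts in every total RNA library are described here, out of 55487 genes in the count tables. These were 5 of 6 H1, 12 of 18 H2A, 9 of 18 H2B, 8 of 12 H3 and 9 of 13 H4 genes. They were selected on these total RNA counts, so their RNA levels are given as a description. The floor fell in a wide gap. The lowest counts in any library were 36 for Hist1h1a, 47 for Hist1h3b and 80 for Hist1h2ao just inside it, and 8 for Hist1h2ad, 5 for Hist1h3d and 2 for Hist1h2bf just outside.

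All cells carried a short hairpin RNA, either a control hairpin (shCtr, genotype labelled WT) or hairpin number 2 against Osgep (shOSGEP, genotype labelled KD OSGEP). The Osgep protein is the enzyme within KEOPS, a complex that modifies tRNAs to carry t6A (N6-threonylcarbamoyladenosine). The tRNAs concerned pair with ANN codons, those with A as first base. Both genotypes were exposed to cycloheximide at 10 µg/ml for 5 min, and each of 3 replicates gave a library of ribosome-protected fragments (RPF) of 25 to 35 nucleotides and a total RNA library, 12 in all. A single hairpin against Osgep was sequenced. The study's methods describe independent transductions as the replicates of its experiments, and p-values measure the spread between these libraries.

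Total RNA libraries held 46717840 to 81073416 counts and RPF libraries 12850642 to 40343700. The shOSGEP replicate 1 cells stood apart. Osgep RNA there was 0.589 CPM (counts per 1000000, on TMM-scaled library sizes), against 6.92 and 6.77 in the other shOSGEP libraries and 13.9 to 15.7 in shCtr, and coding genes took 15.6% of its RPF counts against 29.8% to 48.6% elsewhere. Results are therefore given per replicate pair, that is, shOSGEP minus shCtr of the same replicate number in log2 CPM, and again without replicate 1. Melanocyte lineage markers summed to 9665 to 16837 RNA CPM in shCtr and 2655, 12789 and 11390 CPM in shOSGEP replicates 1 to 3, with all 7 detected. Leukocyte, epithelial and endothelial markers summed to at most 0.217 RNA CPM in any library. In RPF, epithelial markers summed to 4.38 CPM in shOSGEP replicate 1 and 0.466 to 0.849 CPM in the other libraries. Leukocyte and endothelial RPF sums reached at most 0.845 and 0.217 CPM. The 3 fibroblast markers summed to 5.97 to 7.71 RNA CPM in shCtr and 7.65 to 9.96 CPM in shOSGEP, higher in each pair, with 1 of them under 10 counts in every library.

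Cells make most histone mRNA during S phase, when DNA is copied, and remove it when replication stops. These mRNAs have no introns and usually no poly(A) tail: they end in a conserved stem-loop that is bound by SLBP, which directs their 3′ end cutting, their translation and their decay. Most of the genes lie in clusters, and near-identical copies of each type encode the same or almost the same protein. The GEO labels call the libraries total RNA by name but give poly(A) RNA as the molecule. Rn7sk, a small nuclear RNA without a poly(A) tail that was looked up after the data were seen, took 328116 to 948860 counts per total RNA library. In the same libraries Rpph1, the RNA of RNase P, which also lacks a tail, took 374049 to 890026 counts.

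The stem-loop was searched for in the first 300 bases after the stop codon of GENCODE M21 transcripts (GRCm38), as the pattern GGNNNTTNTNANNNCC with at least 5 of 6 paired stem bases. It was found in 35 of 43 histone genes, 21 to 58 bases after the stop codon (median 32), against 0.233% of 21884 other protein-coding genes. Of the 8 genes without a match, 6 had at most 48 annotated bases after the stop codon. The others were Hist1h2bc and Hist2h2be, whose annotated transcripts are long. The 35 stem-loops held only 8 different 16-base cores. A core with GGCTC stem ends was shared by 18 genes of the H1, H2A, H2B and H3 types, and by no H4 gene. They are shown here for genes named in the results below, as DNA letters 5′ to 3′, with the core in capitals.
Hist1h1e, chr13:23621777-23621802, minus strand: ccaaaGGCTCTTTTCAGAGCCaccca
Hist2h2aa1, chr3:96246027-96246052, plus strand: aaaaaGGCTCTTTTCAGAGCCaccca
Hist1h2bg, chr13:23571838-23571863, plus strand: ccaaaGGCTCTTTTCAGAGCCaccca
Hist1h3a, chr13:23761885-23761910, minus strand: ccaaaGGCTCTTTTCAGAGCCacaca
Hist1h3g, chr13:23535884-23535909, plus strand: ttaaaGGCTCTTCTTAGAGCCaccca
Hist1h4h, chr13:23531453-23531478, plus strand: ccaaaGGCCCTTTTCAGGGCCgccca
Hist1h4b, chr13:23757361-23757386, plus strand: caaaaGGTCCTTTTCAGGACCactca
Hist4h4, chr6:136803993-136804018, minus strand: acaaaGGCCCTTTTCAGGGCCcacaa
The stems of Hist1h4h and Hist4h4 carry GGCCC ends, shared by 8 of the 9 H4 genes, and Hist1h4b carries GGTCC.

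Promoters were read from RefSeq (GRCm38.p6, 250 bases before to 50 after each start), which matched 38 of the 43 genes. The octamer ATTTGCAT, the CCAAT box and the TATA box TATAAA were searched on both strands. The octamer is bound by POU domain factors such as Pou2f1. It was present in 5 of 7 H2B and 6 of 12 H2A promoters and in none of 5 H1, 6 H3 or 8 H4 promoters, against 1.74% of all 32851 promoters. CCAAT was present in 33 of 38, including all 30 of the non-H4 promoters and 3 of 8 H4 promoters, against 37.4% of all promoters. The 150 bases before the start of Hist1h2bg, the H2B gene with the highest RNA level per kilobase of exon, and of Hist1h4h, an H4 gene whose RNA groups did not overlap, show this contrast, with matches in capitals.
Hist1h2bg, chr13:23571250-23571399, plus strand: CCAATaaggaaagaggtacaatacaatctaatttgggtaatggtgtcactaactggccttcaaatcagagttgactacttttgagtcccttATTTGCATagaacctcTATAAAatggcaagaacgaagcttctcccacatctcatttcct
Hist1h4h, chr13:23530894-23531043, plus strand: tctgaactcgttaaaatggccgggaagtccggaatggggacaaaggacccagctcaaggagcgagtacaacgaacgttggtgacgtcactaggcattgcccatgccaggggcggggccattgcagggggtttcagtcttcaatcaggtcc
The Hist1h2bg stretch holds 1 match of each motif and the Hist1h4h stretch holds none.

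Histone genes took a visible share of the transcripts of control cells. The 43 genes held 1.03% to 1.12% of protein-coding RNA counts and 0.635% to 0.957% of protein-coding RPF counts in the shCtr libraries. H3 genes gave 25.6% to 28.4% of these histone RNA counts and H1 genes 14.2% to 15.8%. Per kilobase of exon, Hist2h2aa1 (H2A) had the highest RNA level at 1404 ± 257 CPM (SD, n = 3, shCtr). It was followed by Hist1h4h at 865 ± 86.4 CPM per kilobase and Hist2h3b at 859 ± 81.3 CPM per kilobase, which differed by less than their spread. Next came Hist1h3c (625 ± 31.8), Hist2h3c2 (605 ± 60.2) and Hist1h2bg (601 ± 91.0), whose CPM per kilobase also overlapped. At the low end stood Hist2h2be at 2.88 ± 0.236 CPM per kilobase and Hist1h1a, a linker histone gene, at 4.33 ± 1.32 CPM per kilobase. Annotated transcript ends differ widely, and with RNA counted per kilobase of coding sequence the linker gene Hist1h1d moved from 63.0 ± 6.45 to 703 ± 71.9 CPM.

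Footprints were ranked per kilobase of coding sequence, a different scale from the RNA order above. On this scale shCtr RNA was led by Hist2h2aa1 (2093 ± 383 CPM), Hist4h4 (1553 ± 244 CPM) and Hist2h3c2 (1502 ± 149 CPM). Hist1h4d (1303 ± 152 CPM) and Hist1h4h (1303 ± 130 CPM) came next. Per kilobase of coding sequence, the shCtr RPF order was led by Hist1h4d (671 ± 168 CPM, SD, n = 3), Hist1h4a (524 ± 188 CPM), Hist4h4 (455 ± 92.6 CPM) and Hist2h2aa2 (453 ± 175 CPM). The next genes, Hist2h2bb (418 ± 282 CPM), Hist1h4h (413 ± 171 CPM) and Hist1h2bg (403 ± 145 CPM), overlapped with these within their spread. The log2 ratio of RPF CPM to RNA CPM had a median of −1.67 ± 0.403 over the 41 histone genes in shCtr (SD of the 3 library medians), against −1.38 ± 0.0121 over 11311 protein-coding genes with quartiles of −1.70 and −1.04. By type the shCtr medians were −1.88 ± 0.443 for H1, −1.14 ± 0.430 for H2A, −1.71 ± 0.428 for H2B, −3.01 ± 0.416 for H3 and −1.41 ± 0.266 for H4. The H3 median lay below the lower quartile of coding genes in all 3 control libraries. Variants made also outside S phase (9 replication-independent histone genes, among them H3f3a and H3f3b) had a median of −1.58 ± 0.146.

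Sequence sharing between copies was wide in this family. Of all 28-base windows of a transcript, the share found in no other gene had a median of 45.2% over the 43 genes and ranged from 0% in Hist2h2aa2 to 100%. Within coding sequences, where footprints lie, the median share of unique windows was 69.4% for H1, 7.55% for H2A, 15.8% for H2B, 13.2% for H3 and 30.2% for H4. All 9 H4 genes encode the same protein of 103 residues through 9 different coding sequences, with a median of 92.9% identical bases between pairs. The 8 H3 genes encode 2 proteins and share a median of 97.1% of their coding bases. Ratios were widely spread where few windows were unique, from −7.12 ± 1.53 for Hist2h3b (5.47% unique) to 1.80 ± 1.30 for Hist2h2aa2 (0%). Hist4h4, with 97.5% unique coding windows, stood at −1.78 ± 0.325. Over the 41 genes the ratio and the unique share had Pearson's r = 0.180 and Spearman's rho = 0.169, a description across genes of the same libraries. The part of read sharing in the low H3 ratio was not tested.

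**Figure D1:**
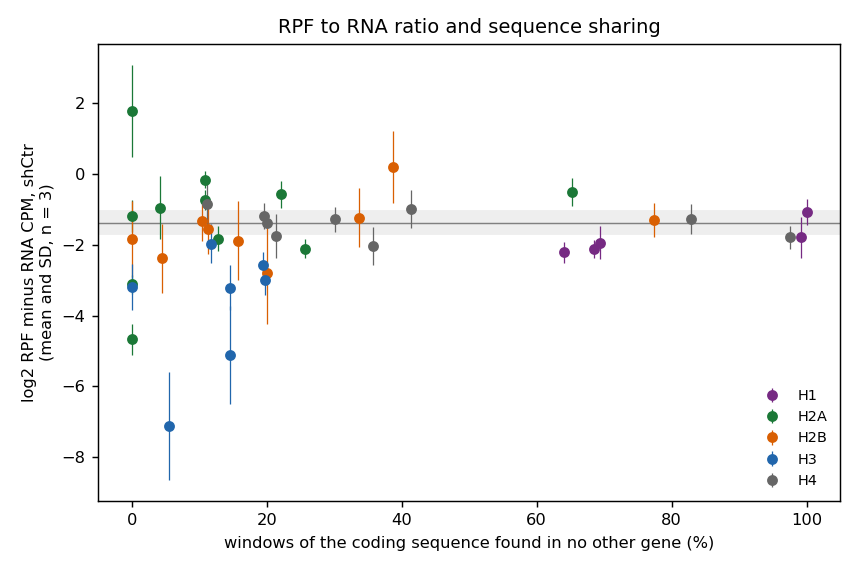
Log2 ratio of RPF to total RNA in shCtr cells (mean and SD of 3 replicates, y axis) against the percentage of 28-base coding windows found in no other gene (x axis) for 41 histone genes, coloured by type, with a grey line and band for the median and quartiles of 11311 protein-coding genes. The H3 genes all lie below the line and at under 20% unique windows, and the spread is widest at the left.

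The H2A genes Hist2h2aa1 and Hist2h2aa2 have identical coding sequences on chromosome 3 (96245497 to 96246082 and 96239749 to 96240276, GRCm38). Of the counts on both, Hist2h2aa1 took 84.2% to 96.3% in the 6 total RNA libraries and 10.1% to 28.6% in the 6 RPF libraries. Their counts were thus divided differently between assays, and the sum of both is given. Summed RNA was 790, 1033 and 816 CPM in shCtr replicates 1 to 3 and 203, 1038 and 664 CPM in shOSGEP. Summed RPF was 286, 187 and 164 CPM in shCtr and 105, 192 and 78.4 CPM in shOSGEP. Both sums were lower in pairs 1 and 3 and nearly equal in pair 2.

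To ask how Osgep knockdown bears on histone transcripts, total RNA was compared next. Histone RNA was far lower in shOSGEP replicate 1 and nearer to the control level in the others. The summed level of the 43 genes was 9417, 10878 and 9672 CPM in shCtr replicates 1 to 3 and 2443, 10586 and 7860 CPM in shOSGEP, so that 25.9%, 97.3% and 81.3% of the paired control level was left. The shOSGEP replicate 1 library lay far below the other 5, and the groups overlapped. The same library had the lowest melanocyte marker sum and the least Osgep RNA, and the part of these in the result was not tested. Osgep RNA differed by −4.48, −1.18 and −1.17 on the log2 scale in pairs 1, 2 and 3. Osgep footprints differed by −0.66, −0.92 and −0.98, so they fell least in pair 1. In bulk libraries, fewer cells in S phase and less histone RNA per cell cannot be told apart. All 43 genes were lower in pair 1, against a background of 49.6% of 14516 genes tested, with a median of −2.13 on the log2 scale, and 40 were lower by more than 1 (background 11%). In pair 2, 27 were lower (background 48%) with a median of −0.05, and in pair 3, 42 were lower (background 49.6%) with a median of −0.30. Medians over all genes tested lay between 0.00 and 0.01 in the 3 pairs.

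**Figure D2:**
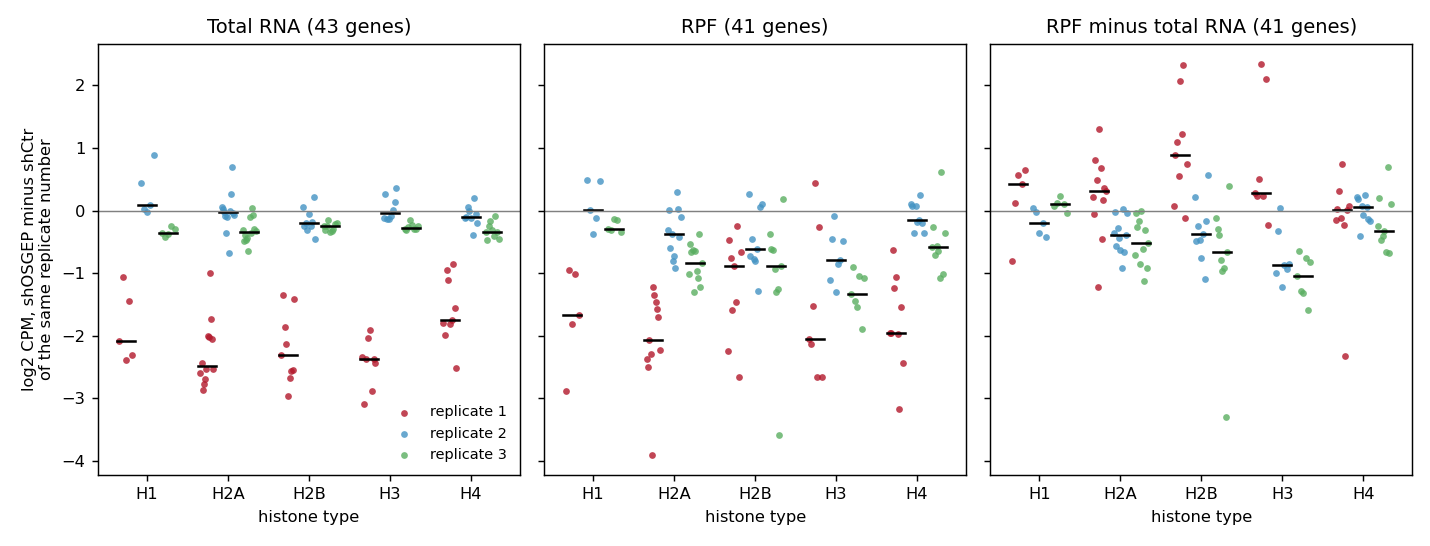
Log2 CPM in shOSGEP minus that in its same-numbered shCtr library (y axis) for each histone gene, by type (x axis) and replicate (colour), in total RNA, RPF and their difference, with points for genes and black bars for medians. In total RNA every replicate 1 point lies at or below −0.85, and replicates 2 and 3 lie between −0.68 and 0.90.

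The pair 1 difference varied in size between genes. It was largest for Hist1h3b, an H3 gene, at −3.09 (6.43 CPM in shCtr and 0.728 CPM in shOSGEP), and for Hist1h2bh, an H2B gene, at −2.96 (151 and 19.4 CPM). It was smallest for the H4 genes Hist1h4i, at −0.85 (7.67 and 4.23 CPM), and Hist1h4c, at −0.95 (221 and 114 CPM). By type the pair 1 medians were −2.49 for H2A, −2.37 for H3, −2.32 for H2B, −2.08 for H1 and −1.75 for H4, with overlapping ranges. By summed RNA CPM, however, H1 kept the most in pair 1, at 34.9% of its control, against 32.2% for H4. Within pair 1, H4 made up 23.7% of histone RNA counts in shCtr and 29.4% in shOSGEP, and H3 28.4% and 22.3%. H1 made up 15.4% and 20.8%. In the other libraries those shares were 23.1% to 25.4% for H4, 25.6% to 27.96% for H3 and 14.2% to 15.8% for H1. Genes with at most 200 annotated bases after the stem-loop had a pair 1 median of −2.31 (20 genes), and those with longer annotated ends −1.91 (15 genes).

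No histone gene passed the test in total RNA. The genes were chosen by a floor on these same counts, so the tests and counts given here are a description. With edgeR's quasi-likelihood test over all 14516 genes, 0 of 43 had an adjusted p under 0.05, and so did 0% of all genes. At an unadjusted p under 0.05, 0 of 43 were lower (background 0.262%) and 0 were higher (background 1.52%). DESeq2 also called 0 of 43 (background 0.0363%). With the replicate number as a block, edgeR called 0 of 43 (background 0.00689%), and 1 was lower at an unadjusted p under 0.05 (background 0.586%). Across the pairs, 27 of 43 were lower in all 3 (background 16.2%). The fitted changes were negative for all 43, with a median of −0.55 against 0.02 over all genes, and this median became −0.18 without replicate 1. In 4 genes all shOSGEP values lay below all shCtr values (background 3.09%): Hist1h4h, Hist1h4a, Hist1h2ag and Hist2h2be. Hist1h4h (chromosome 13, 23531050 to 23531519) measured 393, 452 and 375 CPM in shCtr and 117, 345 and 282 CPM in shOSGEP, with a fitted log2 change of −0.71 (SE 0.371, edgeR adjusted p = 0.975). Hist1h2ag measured 84.3, 84.1 and 68.3 CPM in shCtr and 13.1, 65.5 and 50.3 CPM in shOSGEP, with a fitted change of −0.88 (SE 0.519, edgeR adjusted p = 0.975). Hist2h2be, an H2B gene with a long annotated 3′ end, measured only 6.84 to 7.98 CPM in shCtr and 2.93 to 5.93 CPM in shOSGEP. For Hist1h4h, Hist1h2ag and Hist2h2be the difference was large in pair 1 and modest in pairs 2 and 3.

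The H1, H3 and H4 genes with the highest RNA CPM, not scaled by length, followed the same course. Hist1h1e, the leading H1 gene by CPM, measured 569, 556 and 578 RNA CPM in shCtr and 209, 589 and 486 CPM in shOSGEP. Hist2h3c2, the leading H3 gene by CPM, measured 655, 547 and 651 CPM in shCtr and 121, 702 and 548 CPM in shOSGEP. Hist4h4, an H4 gene that stands alone on chromosome 6 (136801553 to 136804415), measured 411, 563 and 480 CPM in shCtr and 71.9, 491 and 349 CPM in shOSGEP. For each of these genes the shOSGEP replicate 1 value was the lowest, and the other shOSGEP values lay far closer to the controls. Hist1h1c, another H1 gene, kept a larger part in pair 1, with 449 and 215 CPM, a difference of −1.06.

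Summed ribosome footprints on histone genes were lower in each of the 3 pairs. The summed RPF level was 3545, 3219 and 2163 CPM in shCtr replicates 1 to 3 and 1133, 2686 and 1357 CPM in shOSGEP, which left 32.0%, 83.5% and 62.8% of the paired control. Of the 43 genes, 41 had enough RPF counts for the test, all except Hist1h3b and Hist1h2ao. Medians over the 41 genes were −1.67, −0.36 and −0.71 in pairs 1, 2 and 3, against 0.00 over all genes in each pair. In all 3 pairs 27 of 41 were lower (background 15.2% of 13529 genes) and 0 were higher (background 15.6%). Pair by pair, 40, 28 and 39 of 41 were lower (backgrounds 50%, 50.5% and 49.8%). In pair 2, 10 of the 20 genes with at least 50% unique windows were lower, and 18 of the 21 tested genes below 50%. By more than 1 on the log2 scale, 32 were lower in pair 1 (background 14.4%), 3 in pair 2 (background 3.13%) and 15 in pair 3 (background 1.81%). The shOSGEP replicate 1 library also had the lowest share of coding counts, whose part in pair 1 was not tested.

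H3 genes had the lowest RPF medians in pairs 2 and 3. By type, pairs 1, 2 and 3 had medians of −2.05, −0.80 and −1.33 for H3, −2.06, −0.37 and −0.84 for H2A, and −0.88, −0.62 and −0.89 for H2B. The corresponding medians were −1.96, −0.15 and −0.58 for H4 and −1.67, 0.00 and −0.29 for H1. Summed over the 8 genes, H3 footprints were 340, 360 and 216 CPM in shCtr and 92.1, 237 and 100 CPM in shOSGEP, so 27.05%, 65.8% and 46.6% was left. H1 footprints were 415, 389 and 291 CPM in shCtr and 187, 349 and 253 CPM in shOSGEP, so 45.2%, 89.6% and 87.1% was left. Differences between types were not tested. The 2 types also differ in sharing, and the 20 genes with at least 50% unique windows had medians of −1.62, −0.05 and −0.46, against −1.70, −0.49 and −1.07 in the 21 tested genes below 50%. The part of sequence sharing in these changes was not tested.

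**Figure D3:**
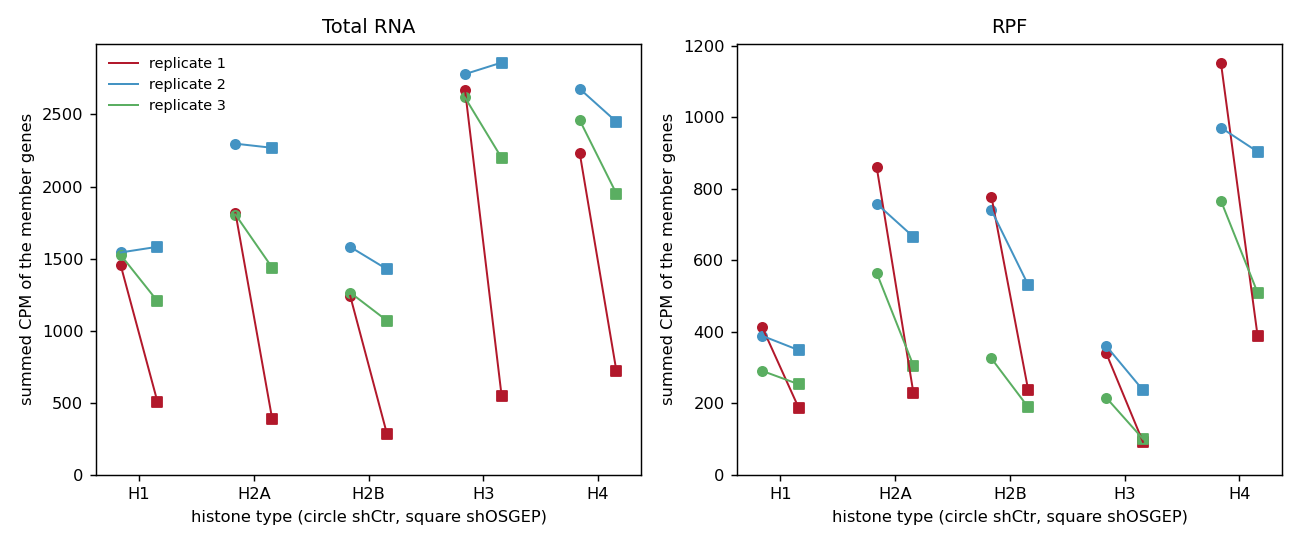
Summed CPM of the histone genes of each type (y axis, from 0) in total RNA and RPF, with circles for shCtr and squares for shOSGEP and a line joining libraries of the same replicate number. In replicate 1 the shOSGEP value is far below its control in both assays for every type, and H3 footprints are below their control in all 3 replicates.

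No single gene passed the adjusted test in RPF. With edgeR, 0 of 41 histone genes had an adjusted p under 0.05 (background 0% of 13529), and DESeq2 called 0 of 43 (background 0.0119%), with 7 lower at an unadjusted p under 0.05 (background 0.217%). At an unadjusted p under 0.05, 6 of 41 were lower (background 0.273%) and 0 were higher (background 0.754%): Hist1h3a, Hist1h3g, Hist1h2bg, Hist1h2ab, Hist1h3e and Hist2h2bb. All 6 were among the 21 tested genes with under 50% unique windows, against 0 of the 20 with at least 50%. Copies that share reads are not independent, and the part of read sharing in these counts was not tested. With the replicate number as a block, 21 of 41 were lower at an unadjusted p under 0.05 (background 1.52%), and again 0 passed the adjusted test. The fitted median was −0.80 against 0.05 over all genes, and −0.47 without replicate 1. Without that replicate edgeR called 0 of 42 tested (background 0%), and 1, Hist1h3a, was lower at an unadjusted p under 0.05 (background 0.226%).

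Hist1h3a, an H3 gene on chromosome 13 (ENSMUSG00000069265, 23761853 to 23762386, minus strand), gave the smallest p. Its RPF measured 42.7, 29.6 and 22.6 CPM in shCtr and 10.2, 13.7 and 8.97 CPM in shOSGEP. Every shOSGEP library lay below every shCtr library, as for 5 of the 41 genes (background 2.64%). Pair differences were −2.05, −1.11 and −1.33, and the fitted change was −1.53 (SE 0.329, edgeR adjusted p = 0.9998). With no filter on low counts its edgeR adjusted p was 0.0126, a setting under which 0.681% of 33633 genes were called, and it was then the only histone gene called. Its RNA measured 239, 274 and 217 CPM in shCtr and 47.3, 253 and 177 CPM in shOSGEP. Only 19.8% of its coding windows were unique, so its count is uncertain.

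Hist1h3g, an H3 gene whose stem-loop core differs from that of Hist1h3a, showed RPF of 48.8, 47.2 and 31.9 CPM in shCtr and 7.68, 26.01 and 15.4 CPM in shOSGEP. Its groups did not overlap, and the fitted change was −1.38 (SE 0.459, edgeR adjusted p = 1.00). Hist1h2ab, an H2A gene with the octamer in its promoter, showed 148, 113 and 113 CPM in shCtr and 28.4, 91.1 and 55.6 CPM in shOSGEP, again without overlap. Hist1h2bg, shown above for its promoter, measured 189, 182 and 89.9 CPM in shCtr and 63.1, 106 and 47.1 CPM in shOSGEP. There the groups overlapped through the low control of replicate 3, although it was lower in all 3 pairs. Hist1h4d, the H4 gene with the most footprints, measured 264, 205 and 160 CPM in shCtr and 112, 216 and 108 CPM in shOSGEP, so that pair 2 was not lower.

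H2B footprints depended on which copies were summed. Over the 9 genes above the RNA floor, H2B RPF was 778, 740 and 325 CPM in shCtr and 238, 531 and 189 CPM in shOSGEP, with 30.6%, 71.8% and 58.1% left. Over all 18 protein-coding H2B genes it was 1146, 745 and 466 CPM in shCtr and 276, 642 and 301 CPM in shOSGEP, with 24.1%, 86.2% and 64.7% left. Nearly all of the gap, in the libraries that counted it, was Hist1h2bl (chromosome 13, 21715763 to 21716143), which has 11.3% unique windows. It held 6333, 0 and 6910 RPF counts in shCtr and 452, 3461 and 4305 in shOSGEP, but 0 to 3 RNA counts. Its count of 0 in a control library of 12850642 counts allows up to 3 counts, for counting error only. Within the measured H2B genes, Hist1h2bk had RPF counts of 239, 512 and 289 in shCtr and 138, 412 and 16 in shOSGEP. Sums over the other types moved by less, and for H1, H2A, H3 and H4 the share left changed little between both sums.

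The ratio of footprints to RNA differed in direction between pairs. Translational efficiency, the change in RPF minus the change in RNA, had medians over 41 histone genes of 0.31, −0.32 and −0.47 in pairs 1, 2 and 3. Of the 41, 4 were lower in all 3 pairs (background 11.2%) and 2 were higher in all 3 (background 11.6%). In pair 1, 10 of 41 were lower (background 49.1% of 12560 genes), in pair 2, 31 (background 52.2%), and in pair 3, 33 (background 52.1%). The summed ratio of RPF CPM to RNA CPM was 0.376, 0.296 and 0.224 in shCtr and 0.464, 0.254 and 0.173 in shOSGEP. The control values alone spanned a wider range than any pair difference. In the interaction test of edgeR, 0 of 41 passed an adjusted p under 0.05 (background 0%), 0 had an unadjusted p under 0.05 in either direction (background 0.0637% lower and 0.0717% higher), and DESeq2 called 0 of 43 (background 0.022%). The RNA side of this ratio was used to choose the genes. The fitted median was −0.24 against 0.00 over all genes, and it became 0.04 without the shOSGEP replicate 3 libraries.

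H3 again stood at the low end. The ratio of summed H3 RPF to RNA was 0.127, 0.130 and 0.0824 in shCtr and 0.169, 0.0829 and 0.0457 in shOSGEP, a higher value in pair 1 and lower values in pairs 2 and 3. For H4 the pairs were close, with 0.516, 0.363 and 0.312 in shCtr and 0.538, 0.369 and 0.261 in shOSGEP. In 1 of the 41 genes (2.44%), Hist1h4b, all shOSGEP ratios exceeded all shCtr ratios, a share near the background of 2.03%. The opposite order was seen in 0 (background 2.31%). The log2 ratios of Hist1h4b were −1.37, −1.41 and −1.38 in shCtr and −1.33, −1.23 and −1.18 in shOSGEP. Its fitted change of 0.17 was smaller than its SE of 0.775. Only 20% of its coding windows were unique. Hist2h2be, the other gene that was higher in all 3 pairs, had differences of 0.75, 0.57 and 0.39 with overlapping groups, and its RPF counts were only 17 to 156 per library.

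The share of ANN codons was computed for each type. The median share was 38.6% in H1 and 33.6% in H2B genes, higher than in 99.3% and 94.6% of 11266 protein-coding genes. It was 26.7% in H3, 26.5% in H4 and 24.0% in H2A, around the coding median of 26.8%. Translational efficiency medians in pairs 1, 2 and 3 were 0.43, −0.20 and 0.10 for H1 and 0.88, −0.38 and −0.67 for H2B. The H2B values depended on which copies were included. The log2 change in the ratio of summed H2B RPF to RNA was 0.41, −0.33 and −0.54 over the 9 genes above the floor. Over all 18 protein-coding H2B genes, Hist1h2bl among them, it was 0.07, −0.07 and −0.39. The translational efficiency medians were 0.28, −0.86 and −1.04 for H3, 0.31, −0.38 and −0.51 for H2A and 0.02, 0.05 and −0.33 for H4. Across the 41 genes the change had Pearson's r with the ANN share of 0.164, 0.130 and 0.126 in pairs 1, 2 and 3. These points share libraries and coding sequence, and the values are a description. The part of the ANN share in these changes was not tested.

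Genes that work with histones were read next, from lists of known function. S phase genes were lower beside histones in RNA of pair 1. All 20, among them the DNA clamp gene Pcna and the helicase gene Mcm2, were lower, with a median of −1.66, and medians were −0.11 and −0.17 in pairs 2 and 3. Pcna RNA was 357, 467 and 405 CPM in shCtr and 121, 401 and 359 CPM in shOSGEP. In RPF the S phase medians were −1.48, −0.31 and −0.32, beside −1.67, −0.36 and −0.71 for the histone genes. The 7 melanocyte markers had RPF medians of −1.74, −0.69 and −0.02 and RNA medians of −2.16, −0.36 and 0.06. By edgeR 0 of 20 passed in RPF or RNA, and 0 had an unadjusted p under 0.05.

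**Figure D4:**
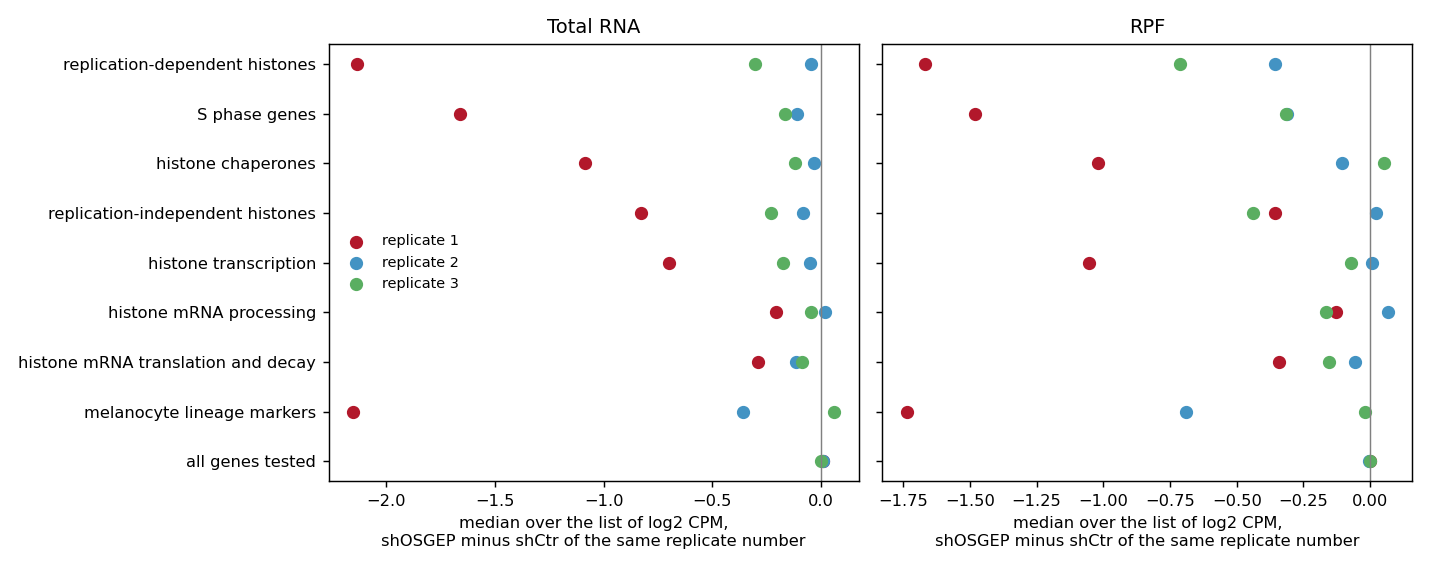
Median of log2 CPM in shOSGEP minus its same-numbered shCtr library (x axis) for the histone genes and 8 comparison sets (y axis), in total RNA and RPF, with a point per replicate. Replicate 1 of histones, S phase genes and melanocyte markers lies furthest left. The RPF medians of these 3 sets, and of the genes of histone mRNA translation and decay, are below 0 in every replicate.

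Among regulators of histone mRNA, Slbp and Npat had RNA close to control in every pair. Slbp, which binds the stem-loops printed above, had RNA of 58.3, 76.6 and 85.3 CPM in shCtr and 56.6, 78.3 and 80.0 CPM in shOSGEP. Npat, the coactivator of histone transcription, had 58.7, 72.1 and 81.5 CPM in shCtr and 60.2, 75.2 and 77.8 CPM in shOSGEP. Their pair differences in RNA lay between −0.09 and 0.06. The 11 processing genes had RNA medians of −0.21, 0.02 and −0.05 in pairs 1, 2 and 3, and the 9 genes of histone mRNA translation and decay −0.29, −0.11 and −0.09. Within the latter, Upf1, a helicase of mRNA decay, differed by −0.82, −0.15 and −0.05, and Eri1, an exonuclease that trims the histone stem-loop, by −0.97, −0.12 and −0.14. Among 8 transcription genes the pair 1 median was −0.70, with −0.71 for Casp8ap2, a partner of Npat, and −1.04 for Ccne2, a cyclin of S phase entry, and the medians of pairs 2 and 3 were −0.05 and −0.17. The lowest of the 8 in pair 1, named after its values were seen, was Cdk2, the kinase that acts on Npat. Its RNA differed by −2.03, −0.44 and 0.11 in pairs 1, 2 and 3. No gene of these lists passed the adjusted test of edgeR in RPF or RNA.

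Chaperones that carry histones to DNA had RNA medians of −1.09, −0.03 and −0.12 over 9 genes. Chaf1b, a subunit of the chromatin assembly factor, measured 64.9, 73.0 and 71.5 RNA CPM in shCtr and 15.9, 64.1 and 59.3 CPM in shOSGEP. In RPF, Asf1b, a chaperone of new H3 and H4, had pair differences of −1.11, −0.65 and −0.87 and an unadjusted p of 0.0253, with an edgeR adjusted p of 1.00.

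Replication-independent histone genes varied. H3f3b, which encodes an H3 variant used also outside S phase, had 615, 671 and 581 RNA CPM in shCtr and 675, 655 and 549 CPM in shOSGEP. H2afx, an H2A variant of the DNA damage response, measured 551, 654 and 493 CPM in shCtr and 122, 561 and 402 CPM in shOSGEP, close to the course of the replication-dependent genes. H2afy differed by −1.77, −0.08 and −0.23 in pairs 1, 2 and 3. Cenpa, the centromeric H3 variant, measured 71.6, 84.4 and 65.9 CPM in shCtr and 6.86, 63.7 and 66.3 CPM in shOSGEP. Cenpa was outside the naming rule and had the lowest pair 1 change of the tested genes in this list, at −3.38. H2afz, H3f3a and H1f0 differed by −1.20, −0.60 and −0.83 in pair 1. Of the 11 listed, 9 were tested, with RNA medians of −0.83, −0.08 and −0.23.

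A contiguous block of histone genes had few or no counts in total RNA. Between Hist1h2bl and Hist1h2br on chromosome 13 (21715763 to 21837530, 122 kilobases, GRCm38) lie 18 protein-coding histone genes, and only Hist1h2ao passed the floor of 10 counts. Hist1h2ao has 6.18% unique windows, and 0% within its coding sequence, so its own count is uncertain. The other 17, of 24 histone genes below the floor in all, reached at most 40 RNA counts in any library. Of these 17, 12 had 1.60% to 11.7% unique windows, so their counts are uncertain. Hist1h1b, however, an H1 gene with 94.4% unique windows (21779883 to 21780625), held 0 counts in all 6 total RNA libraries, each of which allows up to 3, and 0 or 1 in the RPF libraries. Hist1h2bm, with 39.4% unique windows, also held 0 RNA counts in every library. Outside the block, the zinc finger gene Zkscan8 on one side held 1347 to 2535 RNA counts and Zfp184 on the other 140 to 310. In each of the 6 libraries, the next histone genes along the chromosome, Hist1h2ah and Hist1h2bk, held 140 to 1152 and 650 to 6195 RNA counts. The cause of the low counts was not tested.

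**Figure D5:**
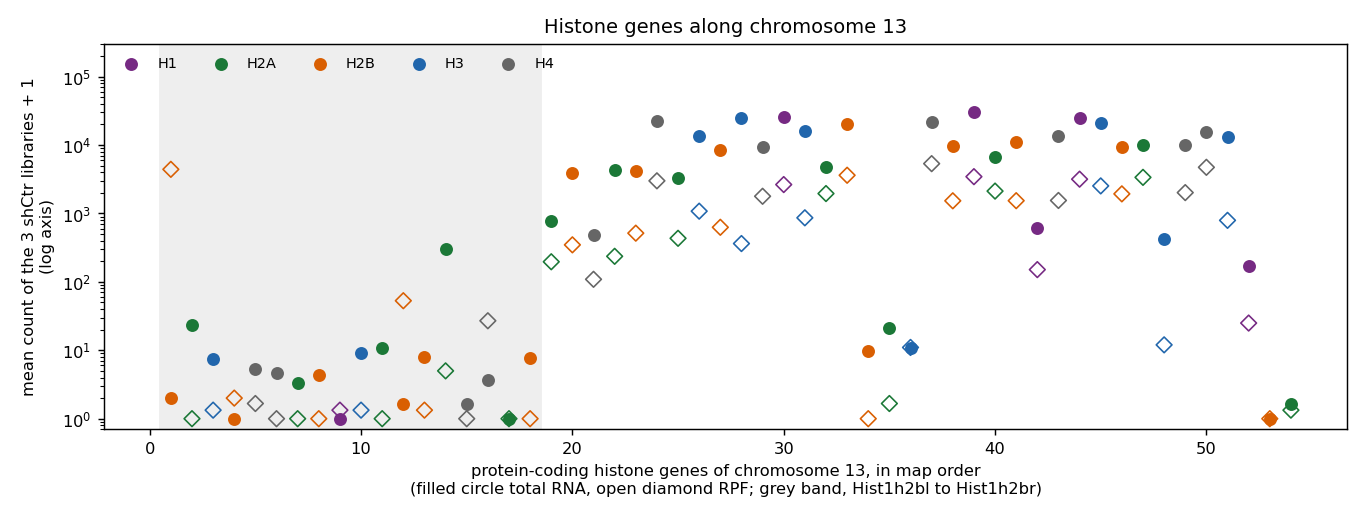
Mean count of the 3 shCtr libraries plus 1 (y axis, log scale) for the protein-coding histone genes of chromosome 13 in map order (x axis), filled circles for total RNA and open diamonds for RPF, coloured by type. The grey band marks Hist1h2bl to Hist1h2br, where 17 of 18 genes stay at or below 40 RNA counts in every library and the RPF of Hist1h2bl stands out.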

How the data were processed

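The authors deposited whole-number read counts per Ensembl gene for 6 RPF and 6 total RNA libraries. Submitters' processing notes name FastQC 0.11.9, Trim Galore 0.6.6, cutadapt and STAR, with both GRCm38 and GRCm39; the counting step, its strand and its handling of reads with several matches are not given in the sources used here, nor is the total RNA kit. The study's methods align footprints to the coding transcriptome and keep perfect matches, but the RPF table also counts noncoding genes, so that step may not be the one behind it. Symbols and coordinates came from GENCODE M21 (GRCm38). The 43 genes, the lists and the naming rule (leading genes per type, smallest p, largest changes shared by all pairs, genes next to the floor, known regulators) were chosen with earlier results of these data known.

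Counts were fitted in R 4.3.3 with edgeR 4.0.16 (filterByExpr, TMM, quasi-likelihood test, Benjamini-Hochberg threshold 0.05, two-sided) for RPF, total RNA and, over 12 libraries, their interaction. DESeq2 1.42.0 was an alternative. Log2 CPM used a prior count of 2. The fitting code was checked on simulated counts with a fixed dispersion and no replicate effect. That check does not show which changes the tests could call in these libraries. Same-numbered libraries deviated together (correlations 0.586, 0.508 and 0.665 in RPF, 0.515, 0.542 and 0.287 in RNA), so the labels' replicate numbers were used as a block in an alternative.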

Additional observations from a re-analysis of the deposited data

How the results depend on the processing

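With no filter on low counts, edgeR called 1 histone gene in RPF, Hist1h3a, at a log2 change of −1.58, against 0 with the filter. Leaving out 1 library or replicate at a time left 0 called in RPF, RNA and translational efficiency. The medians over the histone genes then ranged from −1.42 to −0.47 in RPF, −1.0005 to −0.13 in RNA and −0.51 to 0.042 in translational efficiency, which was above 0 only without shOSGEP replicate 3. The mean log2 change in the ratio of summed RPF to RNA ranged from −0.027 to 0.26 for H1, −0.36 to 0.074 for H2A, −0.44 to 0.042 for H2B, −0.12 to 0.043 for H4 and −0.30 to 0.040 for all types. It changed sign without replicate 1 for H1 and without replicate 3 for H2A, H2B, H4 and all types. Single genes also changed sign. In RPF the ranges were −0.48 to 0.33 for Hist2h2be, −1.81 to 0.063 for Hist1h2ah and −1.09 to 0.099 for Hist1h1a. In RNA they were −0.91 to 0.68 for Hist2h2aa2, −0.89 to 0.052 for Hist2h3c2, −0.92 to 0.074 for Hist2h2bb, −0.72 to 0.16 for Hist1h1a and −0.95 to 0.12 for Hist1h3b. In translational efficiency the range was −1.55 to 0.44 for Hist2h2aa2. With protein-coding genes alone Hist2h2be in RPF stood at 0.015. The cause of these reversals was not tested. With the replicate block the medians were −0.96 in RPF, −0.80 in RNA and −0.09 in translational efficiency, 21 genes instead of 6 had an unadjusted p under 0.05 in RPF, and the block changed no adjusted call. The fit without replicate 1 in both genotypes was chosen after seeing the data. Low coding counts in RPF, above all in shOSGEP replicate 1, limit the precision for weakly translated copies.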
